A study of Mus musculus with 4 samples.

Results

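Leukocytes of the tumour-bearing brain were profiled in single cells after anti-PD1, and the library from mice without the type I interferon receptor, labelled IFNaR-/- (KO below), was compared with the library from wild-type (WT) mice. Barcodes with at least 200 genes detected and at most 10% of their UMIs (unique molecular identifiers, the counted RNA molecules) from mitochondrial genes were kept, which left 9464 WT and 8476 KO cells, 17940 of the 26014 cells kept over all 4 libraries of the study. All 4 groups carried GL261, a mouse glioma line, in the brain. Anti-PD1, an antibody against an inhibitory receptor of T cells, was given at 200 ug per mouse on days 7, 11, 15 and 19, and CD45.2+ 7-AAD- cells (live leukocytes) were sorted on day 25. The labels give brain as the tissue and name brain cells in the dissociation, but the sorting step of the same protocol names lung. The study's untreated pair, WT and IFNaR-/- mice with tumours sorted on day 20, supplied 8074 cells and is given beside the treated pair where a value needs it. Each group is 1 library made from pooled cell suspensions, and the labels give neither the number nor the age of the mice, nor the receptor subunit that was removed. There is therefore no spread between replicates, no test was made, and each interval is a 95% interval that covers counting error only. Per the labels, CD3+ and CD3- cells of the treated groups were brought to a 1:1 ratio before loading. Shares of cells are therefore given within T cells and within non-T cells. Gated T cells were only 478 of the 9464 WT and 644 of the 8476 KO cells, far fewer than that ratio would give. The reason was not tested.

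Type I interferons, interferon beta and the interferon alphas, bind a receptor made of the subunits IFNAR1 and IFNAR2. The kinases JAK1 and TYK2 then activate transcription factors that join IRF9 and bind the interferon-stimulated response element (ISRE) in front of antiviral genes. Interferon gamma, made by T cells and natural killer cells, acts through another receptor, and many genes answer to both. In tumours the pathway is known for its part in antigen presentation, in chemokine production and in the state of macrophages.

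The libraries differed in more than genotype. The WT library had a median of 8810.5 UMIs and 2583 genes per kept cell and the KO library 5180.5 UMIs and 1940 genes, and ribosomal protein genes took 10.7% and 15.1% of UMIs. Among UMIs of T cell receptor genes, the variable segments outnumbered the constant genes in WT (8015 to 4202, a ratio of 1.91) but not in KO (607 to 6308, 0.0962), while the untreated libraries had ratios of 0.0179 and 0.0151; the labels give one kit for all. With genes split into 4 equal classes by intron length, the class with the longest introns had a median log2 ratio KO/WT of 0.59 in CD8 T cells and 0.66 in microglia, and the class with the shortest -0.26 and -0.14. In the untreated pair the classes stayed between -0.01 and 0.13. That pair was counted with another version of the software Cell Ranger (3.1.0, against 7.2.0 for the treated pair), so the comparison is not like for like. The part of these differences in any result was not tested; medians adjusted for intron length are given beside the main value for some lists. Another scaling of the libraries (TMM) moved the log2 ratios by -0.17 in CD8 and CD4 T cells, -0.30 in microglia and -0.20 in monocytes and macrophages. It turned the balance of genes at least 2-fold lower and higher, from 341 and 538 to 504 and 336 in CD8 T cells, from 288 and 315 to 438 and 187 in CD4 T cells, from 764 and 1421 to 1326 and 675 in microglia, and from 971 and 1240 to 1360 and 936 in monocytes and macrophages. Of the barcodes, 95 occurred in both treated libraries, against 0 to 3 for the other pairs of libraries; 92 of them passed the filter, 28 in the same lineage in both, and without them 327 genes in place of 341 were at least 2-fold lower in CD8 T cells and 280 in place of 288 in CD4 T cells.

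Lineages were set by raw UMIs of marker genes. Genes kept out of the T cell markers (Trbc1, Trbc2, Trac and Lck, parts of the T cell receptor and its kinase) summed to 1339 CPM (UMIs per 1000000 UMIs of the lineage) in WT CD8 T cells and 1953 in KO, and to 1.41 and 4.48 in monocytes and macrophages. Siglech, a lectin, is a microglial gene kept out of the microglial gate. It was at 119.7 and 266 CPM in microglia, the resident macrophages of the brain, and at 0.898 and 2.93 in monocytes and macrophages. Olfml3, a secreted protein of microglia, was at 377 and 235 CPM and at 81.6 and 39.8. Of the monocyte and macrophage genes kept out of the gates, Lyz2 was at 8545 and 4519 CPM in microglia. In monocytes and macrophages it was at 11032 and 10118. Ms4a7 was at 403 and 179 CPM in microglia and at 396 and 587 in monocytes and macrophages. Lyz2 and Ms4a7 thus separated the WT gates little. Ccr2, S100a4 and Plac8 were higher in monocytes and macrophages in both libraries. The part of macrophage RNA in microglial values was not tested. The gate for neutrophils held cells with macrophage genes (58 and 32) and was left unnamed, and no natural killer cell was found in either treated library, against 198 and 42 in the untreated pair. Barcodes that passed more than 1 gate (1223 and 1229) or none (1076 and 1304) were left out.

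Ifnar1, the gene of the first receptor subunit, was read in both genotypes and at a higher level in KO. Over all cells it stood at 76.9 CPM in WT and 146 CPM in KO, from 7282 and 7917 UMIs. The order was the same in each lineage, with 79.2 and 147 CPM in CD8 T cells, 65.5 and 114 in CD4 T cells, 59.2 and 151 in microglia and 84.1 and 141 in monocytes and macrophages. Ifnar2, the gene of the second subunit, was at 297 and 201 CPM over all cells and at 310 and 195 in monocytes and macrophages. A targeted allele can still be transcribed, and without the site of the change these levels do not check the genotype.

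Of the ligands, Ifnb1 (interferon beta) was lower in KO and Ifna4 was not detected. Ifnb1 had 65 UMIs over all WT cells and 8 over all KO cells, 0.687 and 0.147 CPM, which is 4.66-fold lower in KO. Microglia held 43 of the WT molecules and 2 of the KO molecules, and monocytes and macrophages 18 and 5. Neither library had an Ifnb1 UMI in CD8 or CD4 T cells. Ifng (interferon gamma) came from T cells, at 517 and 248.9 CPM in CD8 T cells and 1544 and 1029 in CD4 T cells, and 29.0% of its WT UMIs in CD8 T cells were in 1 cell. Its receptor gene Ifngr1 had nearly the same level over all cells in both genotypes, at 171 and 174 CPM.

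Downstream of the receptor, the kinase genes and the induced signalling genes behaved differently. Tyk2 was at 22.9 and 21.6 CPM over all cells, and Jak1 at 126 and 188. The transcription factors that the pathway itself induces were lower in KO in every lineage named here. Irf9 was at 47.0 and 19.9 CPM in monocytes and macrophages, 37.3 and 17.8 in microglia, 58.0 and 18.5 in CD8 T cells and 63.1 and 21.2 in CD4 T cells. Stat2 was at 91.9 and 20.3 CPM in monocytes and macrophages. The feedback inhibitors were lower as well. Usp18, which removes ISG15 and blocks the receptor, was at 63.9 and 2.79 CPM in monocytes and macrophages (22.9-fold lower, 17.8 to 29.8) and at 45.7 and 0.788 in microglia (58.0-fold lower, 30.4 to 127). Socs1, an inhibitor of the kinases, was at 123 and 25.9 CPM in monocytes and macrophages (4.74-fold lower). Of the 24 receptor, ligand and signalling genes in the files, 21 were measured in monocytes and macrophages (at least 50 UMIs in the pair). Of these, 15 were lower in KO, where 43.2% of all measured genes were lower.

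Sequence in front of the target genes is shown for those with the lowest KO/WT ratio in monocytes and macrophages among interferon-stimulated genes with a window in the table used, for Isg15, and, as a contrast, for Retnla, the gene with the highest ratio. Each line is the 250 bases before the annotated start from RefSeq, build GRCm38.p6, written 5′ to 3′ on the gene's strand. Capitals mark each match to the core of the ISRE, which is GAAA, any pair of bases and GAAA again, searched on both strands with overlapping matches joined.
Oas1g promoter, chr5:120887614-120887863, minus strand: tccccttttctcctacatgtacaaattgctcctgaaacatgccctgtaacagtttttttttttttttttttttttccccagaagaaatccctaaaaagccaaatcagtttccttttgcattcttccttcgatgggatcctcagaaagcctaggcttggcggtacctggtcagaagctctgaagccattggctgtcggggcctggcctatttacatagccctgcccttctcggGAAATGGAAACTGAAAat
Ifit3b promoter, chr19:34607707-34607956, plus strand: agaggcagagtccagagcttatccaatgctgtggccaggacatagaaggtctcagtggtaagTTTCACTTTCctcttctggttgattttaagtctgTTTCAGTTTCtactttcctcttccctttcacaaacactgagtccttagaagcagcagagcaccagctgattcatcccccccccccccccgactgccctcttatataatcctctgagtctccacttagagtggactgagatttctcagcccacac
Oas3 promoter, chr5:120777660-120777909, minus strand: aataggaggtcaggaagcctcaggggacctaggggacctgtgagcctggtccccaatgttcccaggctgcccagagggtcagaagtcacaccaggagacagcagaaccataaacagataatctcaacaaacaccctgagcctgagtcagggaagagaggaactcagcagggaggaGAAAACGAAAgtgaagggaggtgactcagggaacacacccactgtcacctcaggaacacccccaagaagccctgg
Ifi213 promoter, chr1:173599273-173599522, minus strand: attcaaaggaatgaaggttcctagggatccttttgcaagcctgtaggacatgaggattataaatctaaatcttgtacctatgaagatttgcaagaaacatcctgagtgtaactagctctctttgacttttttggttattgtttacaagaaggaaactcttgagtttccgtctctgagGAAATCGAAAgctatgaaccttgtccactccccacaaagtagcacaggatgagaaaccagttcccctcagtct
Isg15 promoter, chr4:156200819-156201068, minus strand: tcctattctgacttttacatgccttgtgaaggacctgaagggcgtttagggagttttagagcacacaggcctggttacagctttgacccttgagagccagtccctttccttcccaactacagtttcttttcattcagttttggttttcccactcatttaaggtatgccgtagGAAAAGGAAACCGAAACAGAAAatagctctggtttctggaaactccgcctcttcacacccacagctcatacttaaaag
Retnla promoter, chr16:48842359-48842608, plus strand: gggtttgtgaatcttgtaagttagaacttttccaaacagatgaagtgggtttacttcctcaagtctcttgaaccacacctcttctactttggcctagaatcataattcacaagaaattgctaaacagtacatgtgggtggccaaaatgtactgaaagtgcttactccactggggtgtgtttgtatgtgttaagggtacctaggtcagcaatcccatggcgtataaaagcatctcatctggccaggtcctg
Isg15 had 3 matches, Oas1g and Ifit3b 2 each, and Oas3 and Ifi213 1 each. The match nearest to the start began 12 bases before it in Oas1g, 66 in Isg15, 73 in Ifi213, 75 in Oas3 and 154 in Ifit3b. Retnla had none in this window. A match describes the letters and is not a measured binding site.

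The interferon-stimulated genes were lower in KO in every lineage examined. The list held 70 genes known to be induced by type I interferon, 67 of them in the files. In monocytes and macrophages all 67 were measured and all 67 were lower, 61 of them at least 2-fold, where 43.2% of all 11932 measured genes were lower and 8.14% at least 2-fold. The median log2 ratio KO/WT of the list was -2.59, beside 0.11 for all genes. In microglia 66 of 66 were lower and 62 at least 2-fold (36.5% and 6.98% of all genes), with a median of -2.77 beside 0.26. In CD8 T cells 42 of 43 were lower and 29 at least 2-fold (38.9% and 5.72% of all genes), with a median of -1.65 beside 0.20. In CD4 T cells 34 of 34 were lower and 19 at least 2-fold (44.7% and 6.81% of all genes), with a median of -1.07 beside 0.10. The smaller lineages followed the same direction, with a median of -1.17 over 18 genes in regulatory T cells and 16 of 18 lower in dendritic cells (48.1% of all genes, median -1.61). A few members had no UMI in KO, and setting them to the bound that 3 counts allow left each of these medians as it was. Reads of near-identical copies such as Ifit3 and Ifit3b, or the Oas1 genes, may be split between them.

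Among the targets, the lowest ratios belonged to antiviral effectors. Oas1g, a sensor of double-stranded RNA that activates RNase L, had 2084 UMIs in WT monocytes and macrophages and 1 in KO, a ratio of 959 (172 to 37901) in favour of WT. Ifit3b, which binds foreign RNA, had 282 and 0 UMIs, at least 43.3-fold lower in KO. Rtp4, a chaperone that restricts virus replication, was at 247 and 1.38 CPM in these cells (179-fold lower, 126 to 264). The same gene had 2093 and 3 UMIs in microglia, 120 and 0 in CD8 T cells (at least 51.6-fold lower) and 53 and 0 in CD4 T cells (at least 10.9-fold lower). Oas2 had 332 and 0 UMIs in microglia (at least 80.3-fold lower) and Ifi44 238 and 0 (at least 57.6-fold lower). Irf7, the factor that amplifies interferon alpha transcription, was at 499.7 and 5.01 CPM in monocytes and macrophages, 262 and 1.58 in microglia, 97.6 and 8.56 in CD8 T cells and 86.9 and 5.78 in CD4 T cells. The ISG15 modifier gene Isg15 was at 1324 and 85.3 CPM in monocytes and macrophages and at 313 and 15.0 in CD8 T cells. Rsad2, which makes an antiviral nucleotide, was at 140 and 18.1 CPM in monocytes and macrophages. Slfn4, a Schlafen gene of myeloid cells outside the list, had 2344 and 1 UMIs there, a 1079-fold difference (193 to 42628).

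The lower level was seen in most single cells. With each cell thinned to 2000 UMIs, the summed UMIs of the 67 genes had a median of 38 in 5215 WT monocytes and macrophages and of 6 in 3179 KO cells. Microglia had medians of 26 (1127 cells) and 5 (1441), CD8 T cells 18 (197) and 5 (321), and CD4 T cells 18 (143) and 7 (106). KO cells at or above the WT 5th percentile made up 5.98% of monocytes and macrophages, 24.5% of microglia, 36.1% of CD8 T cells and 44.3% of CD4 T cells. The distributions were thus closest to separate in monocytes and macrophages and overlapped most in CD4 T cells. Without thinning, 90.4% of WT and 23.7% of KO monocytes and macrophages had an Isg15 UMI, and with it 73.2% (71.9 to 74.4%) and 11.98% (10.9 to 13.2%).

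**Figure D1:**
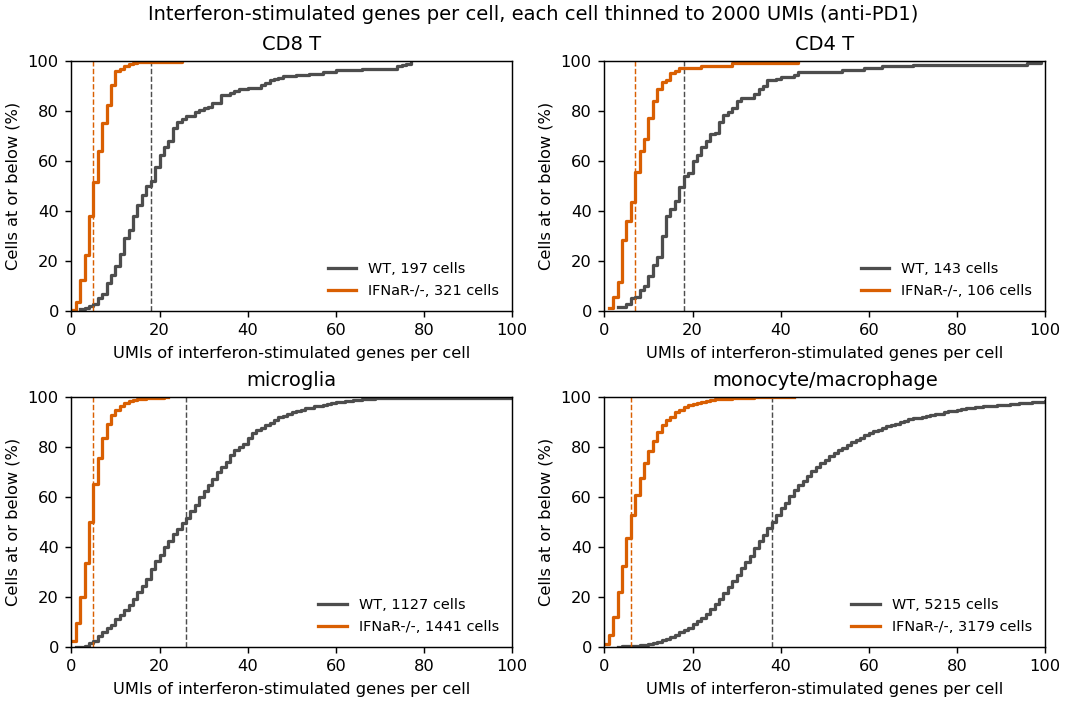
Cumulative share of cells (y axis, percent) by the summed UMIs of 67 interferon-stimulated genes per cell (x axis) after thinning each cell to 2000 UMIs, for WT (grey) and IFNaR-/- (orange) cells of the anti-PD1 libraries in 4 lineages, with dashed lines at the medians. The orange curves lie to the left of the grey ones in each panel, with medians of 6 against 38 in monocytes and macrophages and of 7 against 18 in CD4 T cells.

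In monocytes and macrophages and in microglia, the share of genes with an ISRE match followed the size of the difference. Windows from 250 bases before to 50 after the start held this core on either strand in 3.44% of 32851 windows and for 3.99% of 27025 genes. Of 53 interferon-stimulated genes with a window, 26 (49.1%) had a match. Among all genes at least 8-fold lower in KO monocytes and macrophages it was 25 of 61 (41.0%), among those 2- to 8-fold lower 61 of 626 (9.74%), among those within 2-fold 3.53%, and among those at least 2-fold higher 3.20%. Microglia gave 31.5%, 10.8%, 3.71% and 2.34% in the same order. In CD8 T cells 6 of 12 genes at least 8-fold lower had a match, and the other classes had 10.7%, 3.73% and 4.82%. In CD4 T cells it was 1 of 10 (10.0%), then 16 of 207 (7.73%), 4.07% and 4.26%, with little difference between the lower classes. Of 18 genes linked to interferon gamma, 11 (61.1%) held that match and 10 (55.6%) the gamma-activated sequence, TTCNNNGAA, which 9.55% of all genes hold. None of 28 oxidative phosphorylation genes held the ISRE core.

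**Figure D2:**
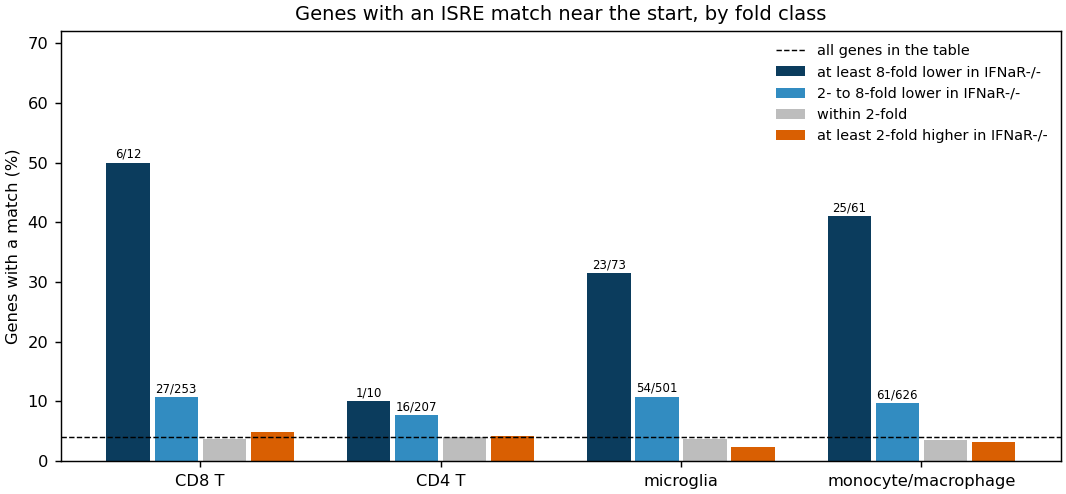
Percent of genes with a match to the ISRE core from 250 bases before to 50 after the start (y axis), by size and direction of the KO/WT ratio (colours) in 4 lineages of the anti-PD1 pair; numbers over bars are genes with a match of genes with a window, and the dashed line is the 3.99% of all genes. The bars for genes at least 8-fold lower are the tallest in each lineage, from 1 of 10 in CD4 T cells to 6 of 12 in CD8 T cells.

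Among the T cells of the 2 libraries, the CD4 and regulatory shares were lower in KO, and the CD8 share was higher at full depth but within overlapping intervals at equal depth. CD8 T cells, which kill target cells, were 205 of 478 WT T cells (42.9%, 38.4 to 47.5%) and 348 of 644 KO T cells (54.0%, 50.1 to 57.9%). CD4 T cells without Foxp3, the helper cells, were 151 (31.6%, 27.4 to 36.0%) and 114 (17.7%, 14.8 to 20.9%). Regulatory T cells, the Foxp3+ cells that hold back immune responses, were 51 (10.7%, 8.05 to 13.8%) and 37 (5.75%, 4.08 to 7.83%). With cells thinned to equal depth before gating, the CD8 shares were 41.4% (37.2 to 45.7%) and 47.0% (43.0 to 51.2%), the CD4 shares 26.1% (22.4 to 30.0%) and 15.6% (12.7 to 18.7%), and the regulatory shares 7.95% (5.81 to 10.6%) and 3.38% (2.08 to 5.18%). The CD8 difference was thus 11.2 points at full depth and 5.63 points (-0.28 to 11.5) thinned. The intervals cover the counting of cells within 1 library a side. T cells that met none of these gates were 14.9% and 22.5% at full depth. Thinned, they were 133 WT and 201 KO cells, beside 141 and 92 CD4 T cells. The part of such cells in the lower CD4 and regulatory shares was not tested. The untreated pair had CD8 shares of 48.2% and 57.6%, or 46.5% and 46.3% thinned, and CD4 shares of 23.8% and 17.6%. Median depth was 4732 UMIs in WT and 3565 in KO CD8 T cells and 4872 and 3640.5 in CD4 T cells, and shallower cells meet a marker gate less often.

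Outside the T cells, microglia took a larger share in KO and monocytes and macrophages a smaller one. Microglia were 1138 of 6687 WT non-T cells (17.0%, 16.1 to 17.9%) and 1519 of 5299 KO cells (28.7%, 27.5 to 29.9%). Monocytes and macrophages were 5447 (81.5%) and 3703 (69.9%). Dendritic cells were rare, with 37 (0.553%) and 41 (0.774%). The untreated pair had microglial shares of 12.2% and 17.6%, monocyte and macrophage shares of 62.5% and 56.5%, and dendritic shares of 7.55% and 9.48%. The microglial gate asks for 3 UMIs, and microglia had median depths of 12496 UMIs in WT and 6265 in KO.

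**Figure D3:**
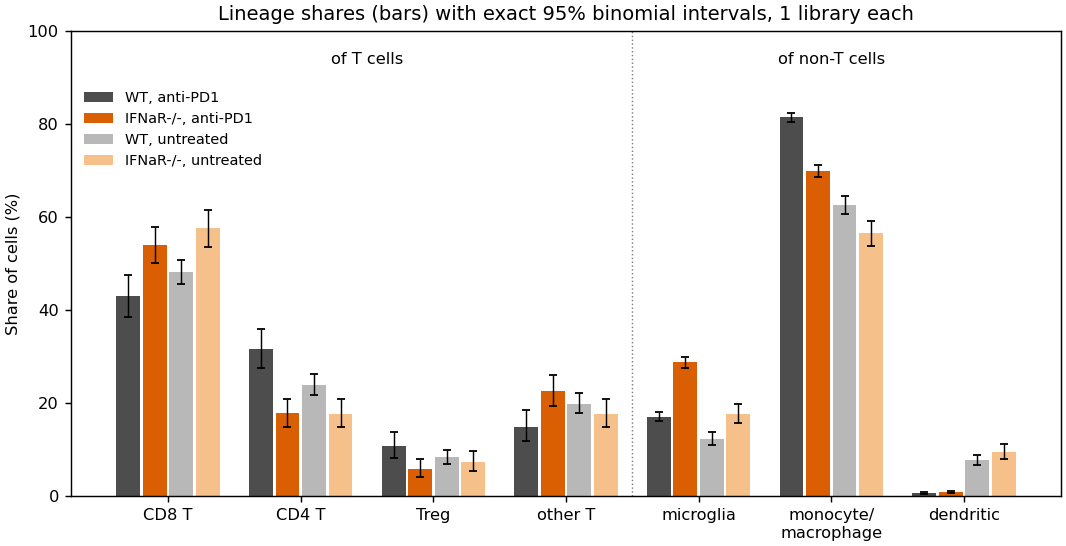
Share of cells at full depth (y axis, percent) by lineage in each library, within T cells (left) and within non-T cells (right), with exact 95% binomial intervals that cover counting error only. After anti-PD1 the IFNaR-/- bar is higher for CD8 T cells (54.0% against 42.9%) and microglia (28.7% against 17.0%) and lower for CD4 T cells (17.7% against 31.6%).

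Monocytes and macrophages, the most numerous lineage, were lower in KO for antigen presentation and inflammatory genes and higher for genes of alternatively activated, wound-type macrophages. Of 27 measured genes linked to interferon gamma, 26 were lower and 19 at least 2-fold (43.2% and 8.14% of all genes). Their median was -1.32 (-0.87 in the untreated pair). Tgtp1, a GTPase that attacks the vacuoles of intracellular pathogens, was at 7.37 and 0.444 CPM (16.6-fold lower, 8.93 to 34.9). Gbp10, a guanylate-binding protein, had 153 and 4 UMIs. Of 22 genes of MHC class I presentation, which shows peptides to CD8 T cells, 20 were lower and 14 at least 2-fold (43.2% and 8.14% of all genes). Their median was -1.10. H2-T24, a non-classical class I gene, was at 22.2 and 1.77 CPM (12.5-fold lower), H2-Q4 at 333 and 52.9 (6.29-fold) and H2-Q6 at 299 and 51.8 (5.77-fold). The H2-Q genes are similar enough that reads may be assigned to the wrong member. MHC class II presentation, which serves CD4 T cells, was lower for 11 of 12 genes (43.2% of all genes). The median was -0.77, whereas the untreated median was 0.36. H2-DMb1, part of the peptide exchanger, was at 712 and 258 CPM after anti-PD1 and at 358 and 578 without it.

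Inflammatory cytokine and enzyme genes were lower in KO in this lineage as a block. All 23 were lower, 18 of them at least 2-fold (43.2% and 8.14% of all genes), with a median of -1.50. The untreated pair had a median of -0.26 for the same list. Il27, a cytokine of myeloid cells that steers T cells, was at 28.1 and 5.46 CPM (5.16-fold lower, 4.29 to 6.25). Il1a, a danger-signal cytokine, was at 312 and 62.6 CPM (4.97-fold lower, 4.71 to 5.26), and at 66.3 and 63.6 in the untreated pair. Il23a, a subunit of the cytokine that sustains interleukin 17 production, had 106 and 10 UMIs. Tnf, the tumour necrosis factor gene, was at 128 and 44.0 CPM (2.90-fold lower). Il1b had a UMI in 92.0% of thinned WT cells and 68.5% of thinned KO cells.

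Genes of wound-type macrophages included the highest ratios of the lineage. Of 27 measured, 19 were higher in KO and 13 at least 2-fold, where 56.8% of all genes were higher and 10.4% at least 2-fold, and the median was 0.72 (1.26 in the untreated pair). Retnla, a secreted product of interleukin 4-activated macrophages, had 0 UMIs in WT and 9120 in KO (405 CPM), at least 6605-fold higher. In the untreated pair it stood at 1.89 and 61.3 CPM. Ear2 and Rnase2a, eosinophil-type ribonucleases of these macrophages, had 63 and 6109 UMIs and 4 and 1511 UMIs, and as near-identical copies they may share reads. Chil3, a chitinase-like protein, was at 30.2 and 546 CPM (18.1-fold higher, 17.1 to 19.1). The genes were not spread evenly over cells. After thinning, Retnla had a UMI in 10.6% (9.58 to 11.8%) of KO cells, Chil3 in 3.72% of WT and 18.4% of KO cells, and Mrc1, the mannose receptor, in 7.19% and 50.7%. In KO CD8 T cells, which should lack these genes, the thinned shares were 0.935%, 0.623% and 3.12%. Unthinned, the shares of monocytes and macrophages were 14.9% for Retnla in KO, 8.0% and 25.7% for Chil3, and 22.1% and 70.3% for Mrc1, at median depths of 8246 UMIs in WT and 5071 in KO.

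Chemokines moved in both directions. Ccl24, which draws eosinophils, was at 60.2 and 2164 CPM (35.9-fold higher in KO, 34.6 to 37.3). Ccl8, a ligand of CCR2 and CCR8, was at 806 and 7513 CPM (9.32-fold higher, 9.22 to 9.42), while the untreated libraries had 137 and 141. Pf4, platelet factor 4, was at 50.4 and 399 CPM (7.92-fold higher) after anti-PD1 and at 73.3 and 42.1 without it. Ccl5, which draws T cells, was at 4985 and 1260 CPM (3.96-fold lower). Of the 17 chemokines measured, 3 were at least 2-fold lower and 5 at least 2-fold higher in KO (8.14% and 10.4% of all genes). Their median of -0.49 therefore joined opposite groups.

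Genes of blood monocytes differed by gene. Ly6c2, the surface marker of inflammatory monocytes, was at 1081 and 13.2 CPM (82.1-fold lower in KO, 73.2 to 92.3) and at 1510 and 92.1 in the untreated pair. A UMI was present in 50.8% of thinned WT and 2.89% of thinned KO cells. Ly6i, a gene of the same family, was at 1586 and 134 CPM (11.8-fold lower). Other monocyte and macrophage genes, kept out of the gates, went both ways. Ccr2 was higher in KO, at 100 and 188 CPM, as was S100a4, at 37.7 and 124. Plac8 was lower, at 1250 and 186 CPM. The list as a whole had 10 of 16 members lower (43.2% of all genes were) and a median of -0.70. Of 14 complement genes measured, 12 were lower (43.2% of all genes were), with a median of -0.53. Cfb, factor B of the alternative pathway, was at 778 and 105 CPM (7.40-fold lower).

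Lipid-handling genes, the set known from disease-associated microglia, were higher in KO for 25 of 27 members, 13 of them at least 2-fold. Of all genes, 56.8% were higher and 10.4% at least 2-fold. The median of the list was 0.85 (0.28 in the untreated pair). Lpl, lipoprotein lipase, was at 9.39 and 133 CPM (14.2-fold higher, 12.8 to 15.6). Apoc1 and Apoc4, apolipoproteins of one gene cluster, were at 11.0 and 135 and at 7.19 and 83.1 CPM. Apoc1 had the other order in the untreated pair, with 14.2 and 7.72. Oxidative phosphorylation subunits were higher for 34 of 36 (56.8% of all genes), with a median of 0.78 beside -0.00 in the untreated pair. They were led by Uqcr11 of complex III at 137 and 558 CPM (4.08-fold). Cell cycle genes were higher for 26 of 27 (56.8% of all genes), with a median of 0.88. Their levels were low, such as 2.80 and 10.8 CPM for Pclaf, a replication factor. Glycolysis and hypoxia genes were lower for 16 of 21 (43.2% of all genes), with a median of -0.48. Aldoa, aldolase A, was at 1433 and 433 CPM and Slc2a1, the glucose transporter GLUT1, at 309 and 114. Immediate early genes were among the lower ones, with Fos at 2097 and 643 CPM, and the untreated pair had 1791 and 1680. The short genes of oxidative phosphorylation kept a higher median after adjustment for intron length, at 0.96.

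Splitting monocytes and macrophages by C1q, the complement component that resident-type macrophages make, kept the direction of the interferon-stimulated, inflammatory and wound-type lists. Some other lists varied with C1q. Cells thinned to 2000 UMIs with 2 or fewer C1qa, C1qb and C1qc UMIs were 22.7% of WT and 7.96% of KO cells, those with 10 or more 68.0% and 70.6%, and those between 9.24% and 21.5%. The medians of interferon-stimulated genes were -2.52, -2.58 and -2.52 in the low, middle and high cells, those of inflammatory genes -1.41, -1.48 and -1.49, and those of wound-type genes 0.84, 0.58 and 0.72. Retnla was at 0 UMIs in WT in each and at 42.4, 180 and 473 CPM in KO. Ccl8 depended on C1q in both genotypes, at 15.8, 37.6 and 1075 CPM in WT and 214, 1622 and 9493 in KO. The direction of each of these values was thus the same in low, middle and high cells. Lipid-handling genes had medians of 0.21, 0.68 and 0.86, and cell cycle genes of 0.03 (5 of 10 higher), 0.82 and 0.84. Chemokines had medians of -0.87, 0.29 and -0.19. The medians of all genes were 0.20, 0.10 and 0.08. Within a sum over cells, fewer cells making a gene and less RNA of it per cell cannot be told apart.

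**Figure D4:**
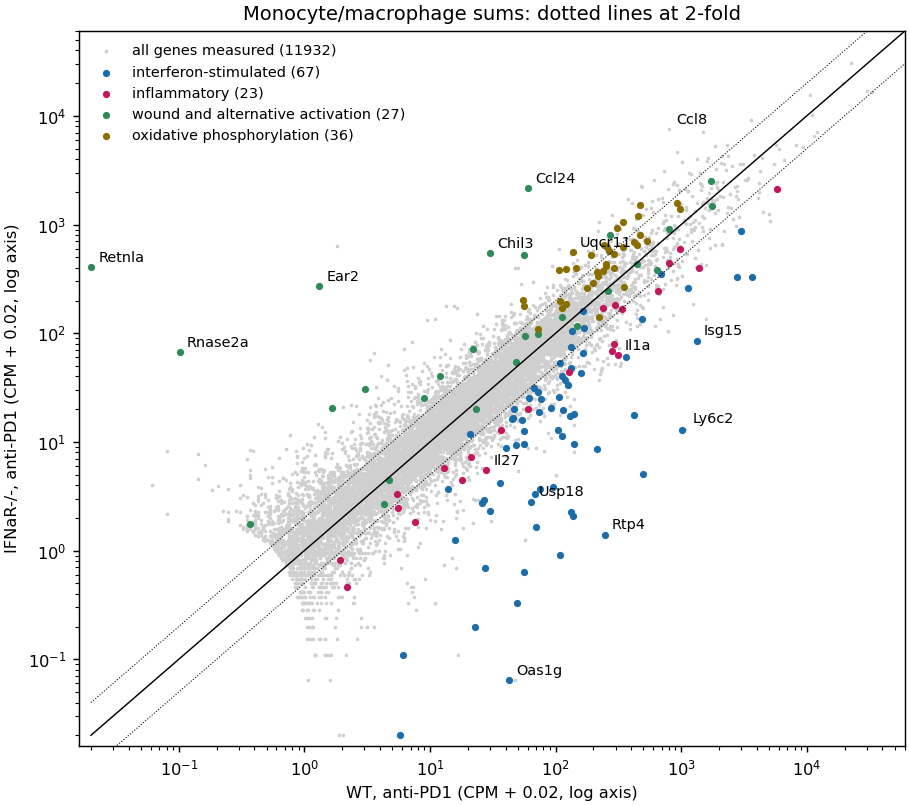
Level of each measured gene in IFNaR-/- (y axis) against WT (x axis) monocytes and macrophages of the anti-PD1 libraries, in CPM on log axes with a small constant added so that genes at 0 can be drawn; dotted lines mark 2-fold. Interferon-stimulated genes (blue, 67) all lie under the diagonal, and Retnla, Ear2, Chil3 and Ccl24 lie far over it.

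Microglia shared the lower interferon and presentation genes. The list of their own identity genes was higher in KO at full depth, but not at equal depth. Genes linked to interferon gamma were lower for 25 of 26 (36.5% of all genes), with a median of -1.56 beside -0.26 in the untreated pair. Nos2, inducible nitric oxide synthase, was at 82.9 and 5.95 CPM (13.9-fold lower, 10.9 to 18.0), against 2.18 and 2.51 without treatment. MHC class I genes were lower for 21 of 21 (36.5% of all genes), with a median of -1.32, among them H2-Q7 at 735 and 184 CPM (3.99-fold). Class II genes were lower for 11 of 12 (36.5% of all genes), with a median of -1.17 beside 0.15 in the untreated pair. H2-DMb1 was at 501 and 136 CPM after anti-PD1 and 257 and 424 without it. Inflammatory genes were lower for 19 of 21 (36.5% of all genes), with a median of -0.86. Il18bp, the decoy that binds interleukin 18, was at 401 and 77.5 CPM (5.18-fold lower).

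Complement genes were lower on balance in KO microglia, and chemokines were split. Cfb was at 440 and 14.9 CPM (29.5-fold lower, 25.4 to 34.6) and had a UMI in 42.3% of thinned WT and 1.94% of thinned KO cells. Serping1, the C1 inhibitor, was at 35.5 and 2.54 CPM, and Cfp, properdin, at 126 and 24.7. Of 14 complement genes measured, 10 were lower and 6 at least 2-fold (36.5% and 6.98% of all genes), with a median of -0.89. Of 17 chemokines measured, 9 were lower and 8 higher (36.5% and 63.5% of all genes), with a median of -0.03 beside 0.26 for all genes. Cxcl13, which draws B cells and follicular helper T cells, had 724 and 20 UMIs (26.3-fold lower, 16.9 to 43.3), in 63 and 5 cells. Ccl5 was at 3167 and 555 CPM (5.70-fold lower). Outside the lists, Spon1, a matrix protein, had 749 and 9 UMIs, and Upp1, uridine phosphorylase, 491 and 12.

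Homeostatic genes of microglia were higher in KO for 16 of 19 members, where 63.5% of all genes were higher. The median was 0.83, or 0.58 adjusted for intron length, beside -0.20 in the untreated pair. The list holds the 6 genes of the microglia gate, which asked for 3 UMIs in both libraries although median depth was 12496 UMIs in WT and 6265 in KO microglia. The 13 members outside the gate had 11 higher and a median of 1.12, beside 0.26 for all genes. With cells thinned to equal depth before gating, 8 of these 13 were higher with a median of 0.18, again beside 0.26 for all genes, so the higher level of the list was not seen at equal depth. Cx3cr1, the fractalkine receptor, was at 493 and 1273 CPM (2.58-fold higher) after anti-PD1, and at 1616 and 1568 without it. Its log2 ratio was 1.37, and 0.77 thinned. Fcrls, an Fc receptor-like gene, was at 116 and 352 CPM (3.03-fold), and Slc2a5, the fructose transporter, at 16.7 and 51.9 (3.11-fold). Among lipid genes, Lpl was at 86.0 and 382 CPM (4.44-fold higher). Its log2 ratio was 2.15, and 1.99 thinned.

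Genes of monocytes and wound-type macrophages were also read in microglia. Ly6c2 was at 237 and 1.66 CPM (142-fold lower in KO) and Plac8, another monocyte gene, at 245 and 9.63. The list of blood monocyte genes had a median of -1.07, but of 0.20 with gate minima 1 UMI higher and 0.20 with thinned cells, so its direction depended on the gate and on depth. Retnla had 0 and 325 UMIs, Ear2 3 and 370, and Ccl24 stood at 17.5 and 255 CPM (14.5-fold higher). Each level in KO microglia was under that in KO monocytes and macrophages, where these genes were at 405, 271 and 2164 CPM. Macrophage RNA or macrophages within the microglial gate as a source of these genes was not tested. Mmp9, a matrix protease, had 0 and 365 UMIs, but 97.8% of the KO UMIs came from 1 cell.

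CD8 T cells of the KO library were lower for interferon-stimulated, class I and cytotoxic genes. MHC class I genes were lower for 17 of 20 (38.9% of all genes), with a median of -0.90 (-0.43 in the untreated pair). Among them was Psmb8 of the immunoproteasome at 840 and 326 CPM (2.58-fold). The cytotoxic and effector list was lower for 19 of 25, where 38.9% of all genes were lower. At least 2-fold, 9 were lower (5.72% of all genes) and 5 higher (9.02%). The median of the list was -0.67, and -0.41 adjusted for intron length. The untreated median was -0.04. After thinning, Gzmb, the main granzyme, had a UMI in 58.4% (51.2 to 65.3%) of WT and 30.2% (25.2 to 35.6%) of KO cells (64.4% and 36.5% unthinned), and Gzma in 17.8% and 7.17%. Monocytes and macrophages, which should lack Gzmb, had 0.211% and 0.0944%. Gzmc had 255 and 20 UMIs, in 13 and 11 cells and with 42.4% of the WT UMIs in 1 cell. Gzmd and Gzme had the opposite order, with 3 and 71 and with 4 and 118 UMIs, in 2 and 12 and in 2 and 19 cells. These granzymes therefore rested on few cells, and cells with any of Gzmc to Gzmf were 9.64% and 13.1% of thinned cells. Ly6c2, also a marker of effector and memory CD8 T cells, was at 852 and 97.0 CPM (8.79-fold lower, 7.34 to 10.6), in 102 of 205 and 55 of 348 cells.

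The exhaustion list did not separate the genotypes in CD8 T cells as a whole. Of 21 genes, 10 were lower and 11 higher (38.9% and 61.1% of all genes), with a median of 0.03. Pdcd1, the target of the antibody, had a UMI in 58.9% of thinned cells in both libraries. Nr4a3, induced by receptor signalling, was at 168 and 454 CPM (2.70-fold higher in KO, 2.28 to 3.20), in 86 and 203 cells. Cd160 was at 50.6 and 14.3 CPM. Among naive and memory genes, Klf2, which keeps T cells in circulation, was at 214 and 46.3 CPM (4.63-fold lower, 3.502 to 6.19) and at 114 and 237 in the untreated pair. Bach2, a repressor of effector genes, was at 79.2 and 197 CPM (2.49-fold higher). Cxcr3, the receptor that leads T cells to interferon-induced chemokines, was at 97.6 and 27.8 CPM (3.51-fold lower). Costimulatory receptors were higher for 9 of 11 (61.1% of all genes), with a median of 0.56 (0.21 adjusted for intron length), including Tnfrsf4 (OX40) at 46.0 and 111 CPM.

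Areg and Tnfsf11 were read in more KO than WT CD8 T cells, while the list of T cell cytokines and helper factors had 4 of 10 measured members lower and 6 higher (61.1% of all genes), with a median of 0.27 beside 0.20 for all genes. Areg, amphiregulin, an epidermal growth factor receptor ligand, was at 48.8 and 294 CPM (6.04-fold higher, 4.53 to 8.19), from 53 UMIs in 7 cells and 413 UMIs in 44 cells, with 60.4% and 25.4% of them in 1 cell. Tnfsf11, the RANK ligand gene, was at 33.1 and 157 CPM (4.73-fold higher), in 22 and 81 cells. After thinning, the share with an Areg UMI was 2.54% (0.829 to 5.82%) and 9.66% (6.66 to 13.4%), and that with a Tnfsf11 UMI 4.57% (2.11 to 8.50%) and 17.1% (13.2 to 21.7%). Microglia, which should lack both, had at most 0.416% for either. Rora, a nuclear receptor of tissue T cells, was at 125 and 533 CPM (4.26-fold higher). Some of the higher genes of KO CD8 T cells were those of macrophages. Ccl8 had 10 and 223 UMIs there, in 8 and 130 cells, Arg1, arginase 1, 18 and 121, and Ccl24 1 and 151, of which 41.7% were in 1 cell. All 6 wound-type genes measured in CD8 T cells were higher (61.1% of all genes), with a median of 1.13, beside these macrophage levels. Free macrophage RNA in the T cell barcodes as their source was not tested. Outside the lists, the lower genes included Cmss1 at 5520 and 1048 CPM, Filip1l at 219 and 42.8 and Cdk8 at 5938 and 1221, which stood at 13.8 and 13.6, 31.4 and 24.9, and 32.3 and 34.4 CPM in the untreated pair.

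CD4 T cells were fewer, 151 and 114, and their values rest on fewer molecules. Class I genes were lower for 16 of 19 (44.7% of all genes), with a median of -0.65, among them H2-D1 at 3321 and 1446 CPM (2.30-fold). Cell cycle genes were higher for 11 of 11, 5 of them at least 2-fold, where 55.3% of all genes were higher and 7.45% at least 2-fold, with a median of 0.94 (1.14 in the untreated pair), including Mki67 at 41.7 and 100 CPM. Ccr8, a homing receptor of activated CD4 T cells, was at 455 and 112 CPM (4.07-fold lower, 3.08 to 5.46), in 94 of 151 and 36 of 114 cells. Tigit, an inhibitory receptor, was at 468 and 206 CPM (2.27-fold lower), and Ccr7, which guides cells to lymph nodes, at 1064 and 326 (3.27-fold lower). In the untreated pair these 3 genes had ratios near 1 or above, with 17.4 and 16.9, 11.7 and 11.3, and 101 and 133 CPM.

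The T cell cytokines and helper factors measured in CD4 T cells were 8 lower and 8 higher of 16 (55.3% of all genes were higher), with a median of 0.19 beside 0.10 for all genes. Il13, Il10 and Il4, which belong to type 2 or regulatory responses, had higher sums in KO from few cells. Il13 had 22 UMIs in 2 WT cells and 142 in 7 KO cells, and Il10 14 in 7 and 85 in 14. Il4 had 6 and 105 UMIs, but 87.6% of the KO UMIs were in 1 of 6 cells. Areg was at 213 and 954 CPM (4.48-fold higher, 3.76 to 5.34), in 22 and 33 cells, and at 41.8 and 252 in the untreated pair. The thinned share of cells with an Il13 UMI was 1.40% (0.170 to 4.96%) and 4.72% (1.55 to 10.7%), and these intervals overlap. Tnf had 145 and 24 UMIs, with 44.1% of the WT UMIs in 1 cell. As in CD8 T cells, Ccl8 was read in more KO cells (17 and 98 UMIs, in 14 and 52 cells). Ifitm1, a membrane antiviral gene outside the lists, was at 1053 and 195 CPM (5.41-fold lower) after anti-PD1, and at 1305 and 1309 in the untreated pair.

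Regulatory T cells and dendritic cells were too few for single genes. In regulatory T cells, whose median over all genes was 0.00, class I genes had a median of -0.80 over 18 measured members and cell cycle genes of -1.15 over 10, while cell cycle genes had a positive median in the other CD4 T cells. The list of regulatory genes had a median of -0.57 over 15 members, and class II genes of 3.20 over 7. Lyz2, a macrophage gene, was at 93.02 CPM in WT and 278.4 CPM in KO regulatory T cells. Free macrophage RNA in these barcodes as the source of the class II genes was not tested. In dendritic cells class I genes were lower for 17 of 17, 14 of them at least 2-fold (48.1% and 13.5% of all genes), with a median of -1.57. Class II genes were divided there, with 5 lower and 6 higher (51.9% of all genes were higher). Oxidative phosphorylation was higher for 33 of 35 (51.9% of all genes).

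Some genes had a different ratio in T cells than in macrophages. Lag3, a checkpoint receptor, had a log2 ratio of -0.32 in CD8 T cells and of 2.30 in monocytes and macrophages, where it was at 13.05 and 64.1 CPM. Klf2 had -2.20 and 0.07, and Areg 2.58 and 0.14. Isg20, an antiviral exonuclease, had -2.51 and -5.39. Microglia and macrophages differed for Cd36, a lipid scavenger receptor (0.49 and 3.53), and for Gpr84, a receptor for fatty acids (0.01 and -2.99). These pairs were picked as the extremes of the difference, and the difference was not tested.

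The treated and untreated pairs share no library, and part of the lower genes was the same in both. Over the genes measured in both pairs, the rank correlation (Spearman) of the log2 ratios was low and differed by lineage. It was 0.38 in monocytes and macrophages, 0.33 in CD8 T cells, 0.17 in microglia and 0.10 in CD4 T cells. In monocytes and macrophages, 9882 genes were measured in both pairs. Of these, 701 were at least 2-fold lower after anti-PD1, 417 without it (4.47% of its measured genes were) and 220 in both, which is 31.4% of the first and 52.8% of the second. Of 759 and 417 at least 2-fold higher, 166 were in both (21.9% and 39.8%; 4.33% were higher in the untreated pair). CD8 T cells had 42 genes lower in both, 13.04% of 322 and 70% of 60 (1.31% of the measured genes of the untreated pair), and 21 higher in both, 4.17% of 504 and 61.8% of 34 (1.42%). Microglia had 113 lower in both (21.9% of 515 and 55.4% of 204, where 2.65% were in the untreated pair) and CD4 T cells 28 (10.5% of 266 and 43.1% of 65, where 2.2% were). Most genes at least 2-fold different after anti-PD1 were thus not so in the untreated pair, which also differed in depth and software version.

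**Figure D5:**
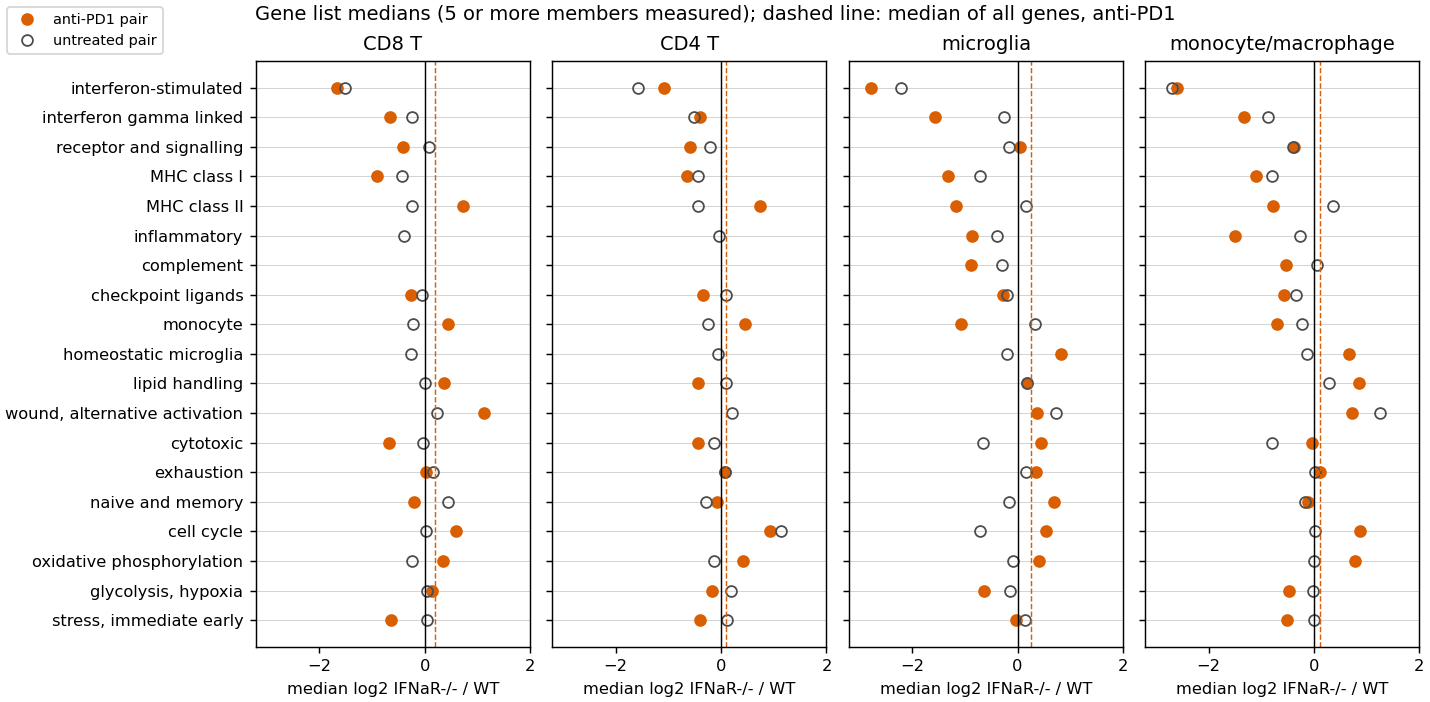
Median log2 ratio IFNaR-/- to WT (x axis) of each gene list (y axis) with 5 or more measured members in 4 lineages, for the anti-PD1 pair (filled) and the untreated pair (open); the dashed line is the median of all genes in the anti-PD1 pair. Interferon-stimulated genes lie far left in both pairs, at -2.59 and -2.70 in monocytes and macrophages, while the inflammatory list lies at -1.50 and -0.26 there.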

How the data were processed

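The deposited tables hold UMI counts per gene and barcode of 4 libraries made with a 10x 5′ kit, written by Cell Ranger 7.2.0 for the anti-PD1 pair and 3.1.0 for the untreated pair, per the file headers, with the builds mm10 and GRCm38 in the submitters' processing notes. They list 32285 genes for the anti-PD1 pair. The samples were grouped by the labels' genotype and treatment. Barcodes with at least 200 genes and at most 10% mitochondrial UMIs were kept, and lineages were gated on raw UMIs of marker genes. No doublet caller was run; barcodes that passed more than 1 gate were set apart. Counts were summed per lineage and scaled to CPM. Log2 ratios used 0.5 counts added to each sum, and a gene was measured with at least 50 UMIs in the pair. With 1 library a group no test was made; at least 2-fold is the call used, and intervals are exact (Poisson for counts, binomial for shares, 95%) and cover counting error only, since the deeper library gives the narrower ones. Genes at 0 were bounded with 3 counts. Lineage shares were taken at full depth, with values from cells thinned to 2000 UMIs beside some of them. Shares of cells with a UMI of a gene were thinned unless given as unthinned. Counts of cells with a UMI were not thinned.

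The genes named were, per lineage, up to 3 per list with the largest ratio among those at least 2-fold different, and the 6 highest and 6 lowest outside the lists with at least 200 UMIs, with the 4 highest and 4 lowest differences between lineages. Isg15, Irf7, Irf9, Rsad2, Ifnb1, Ifng, Ifngr1, Jak1, Tyk2 and the genes given only as shares of cells were added. The members and the gene lists were chosen with earlier results of these data known. Promoter windows came from RefSeq and were matched by symbol. Alternatives were stricter and absent cell filters, higher gate minima, thinning, leaving out the 5% of cells with most UMIs, TMM and DESeq2 size factors, equal weight per cell, adjustment for intron length, minima of 10 and 1 UMIs and a pseudocount of 1. Python 3.11.15, numpy 2.4.6, scipy 1.17.1, pandas 2.3.3, R 4.3.3, edgeR 4.0.16 (for TMM) and DESeq2 1.42.0 (for size factors) were used, and the computation was tested on simulated data. Some items are not reported here.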

Additional observations from a re-analysis of the deposited data

Results flagged for a closer look

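Some log2 ratios KO/WT had opposite directions in the anti-PD1 pair and the untreated pair. Each pair has 1 library a side, so how the pairs differ was not tested. In CD8 T cells Klf2 was at -2.20 after anti-PD1 and 1.05 without it. In microglia the median of the cell cycle list was 0.53 and -0.70, H2-DMb2, a class II peptide exchanger subunit, was at -2.13 and 2.07, and Inhba, an activin subunit, at -4.74 and 1.14. In CD4 T cells Gzmd was at -4.08 and 1.94, Gzme at -3.31 and 2.33, and the chemokine gene Xcl1 at 2.23 and -2.996. The granzyme values rest on few cells: Gzmd was read in 6 WT and 2 KO CD4 T cells, with 61.2% of the WT UMIs in 1 cell.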

How the results depend on the processing

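No paired analysis was possible because each group is 1 library and the labels carry no replicate numbers. Of 294 values for the main results under the alternatives, 237 kept within their range and 57 moved; of 5237 others, 4551 kept, 681 moved and 5 reversed; the cause was not tested. With the barcodes found in both libraries left out, an alternative chosen after seeing the data, none moved beyond its range, or beyond 1.5 times for counts of genes. The median of interferon-stimulated genes in microglia (-2.77) was -2.12 thinned, -3.07 with TMM and -3.11 with DESeq2 size factors, and in monocytes and macrophages (-2.59) -2.77 thinned, -2.79 with TMM, -2.77 with DESeq2 size factors and -2.77 with cells of equal weight. The KO minus WT share of microglia (11.6 points) was 14.8 with gate minima 1 higher, 15.9 thinned and 13.8 with Csf3r out of the neutrophil gate, also chosen after seeing the data; that of monocytes and macrophages (-11.6) was -15.1, -15.9 and -14.0; that of dendritic cells (0.22) was -0.10 thinned.

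Counts of genes at least 2-fold lower or higher followed the settings most. Thinned, the lower counts were 218 in CD8 T cells, 122 in CD4 T cells, 78 in regulatory T cells, 343 in microglia and 84 in dendritic cells, and the higher counts 309, 135, 57, 710 and 82. With TMM the lower counts were 438 in CD4 T cells and 1326 in microglia, and the higher counts 336 in CD8 T cells, 187 in CD4 T cells and 675 in microglia. With DESeq2 size factors they were 517 lower and 329 higher in CD8 T cells, and 1405 lower and 598 higher in microglia. Adjusted for intron length, 302 were higher in CD8 T cells and 708 in microglia. With at least 10 UMIs, which tests more genes, 696 were lower and 1204 higher in CD8 T cells, 795 and 972 in CD4 T cells, 1063 and 811 in regulatory T cells, 771 and 839 in dendritic cells, and 2229 were higher in microglia and 2127 in monocytes and macrophages. With at least 1 UMI the lower and higher counts were 1990 and 3264 in CD8 T cells, 1537 and 2687 in CD4 T cells, 2078 and 2545 in regulatory T cells, 2728 and 4606 in microglia, 2419 and 4589 in monocytes and macrophages, and 2557 and 2895 in dendritic cells. The reversed values were the blood monocyte list in microglia (0.20 with gate minima 1 higher and 0.20 thinned) and, thinned, H2-Ab1 in CD4 T cells (-0.86), Tgfbi in CD8 T cells (-0.41) and Cxcl3 in microglia (1.40). Depth and cell number limit how many genes could be measured: 1513 in dendritic cells, 4230 in CD4 and 5963 in CD8 T cells, against 10946 in microglia and 11932 in monocytes and macrophages. The median of homeostatic genes in microglia (0.83) was 1.12 with the gate genes left out, a choice made after seeing the data, and 0.14 thinned.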
